A study of Mus musculus with 2 samples.

Results

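Mitosis and spindle genes were followed in primary mouse osteoblasts held in medium conditioned by either of 2 human prostate cancer cell lines. The group was a list of 45 genes for the cyclins and kinases that drive cells from G2 into mitosis, the spindle checkpoint, the kinetochore, the spindle motors and cytokinesis. Its members were the probe sets that the array's annotation gave to exactly 1 of these gene symbols. That held for 44 of the 45 genes, out of 18193 genes with a probe set, and Ccnb1 was not listed.

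The study asked which osteoblast transcripts respond to factors from different prostate cancer lines. Osteoblasts were used at day 10 of differentiation, driven by 50 µg/ml ascorbic acid and 10 mM beta-glycerophosphate in alpha-MEM that held 10% calf serum of fetal origin. After a night without serum they spent 6 hours in medium from MDA-PCa2b cells, a bone-metastasis line known for bone-forming lesions, or from PC-3 cells, a bone-metastasis line known for bone-destroying lesions. Total RNA of each condition went to 1 Affymetrix mouse array, so both groups share the differentiation, the starvation and the change to tumour-cell medium. The number of animals behind each culture was not given in the sources used here, and osteoblasts without tumour-cell medium were not analysed here. Every ratio below is the PC-3 medium array over the MDA-PCa2b medium array. With 1 array per medium there was no replicate error and no test between the media.

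A dividing cell enters mitosis when cyclin B and the kinase Cdk1 form an active complex. Kinetochores then bind spindle microtubules, and the spindle checkpoint holds back the anaphase-promoting complex (APC/C), a ubiquitin ligase, until every chromosome is attached. Transcripts of most of these proteins are low in resting cells and accumulate from S phase to mitosis. Their promoters commonly carry a CHR, the element bound by the MuvB complex, and CCAAT boxes, bound by the factor NF-Y. MuvB joins repressors in resting cells and the activators B-Myb and FoxM1 in dividing ones. Differentiating osteoblast cultures keep a share of dividing precursors, so such transcripts are commonly used as a readout of proliferation there.

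These elements were looked for in RefSeq promoter windows (build GRCm38.p6) of 300 bases, from 250 before to 50 after the annotated start. Stretches before the start are printed for genes that carry them before the start, and for Pttg1, which carried neither and had a higher signal with PC-3 medium. Letters are 5′ to 3′ on the gene's own strand, and capitals mark each match to the CHR (TTTGAA or TTCGAA) or to CCAAT, on either strand. Overlapping matches were each counted.
Cdk1, chr10:69352913-69353162, minus strand: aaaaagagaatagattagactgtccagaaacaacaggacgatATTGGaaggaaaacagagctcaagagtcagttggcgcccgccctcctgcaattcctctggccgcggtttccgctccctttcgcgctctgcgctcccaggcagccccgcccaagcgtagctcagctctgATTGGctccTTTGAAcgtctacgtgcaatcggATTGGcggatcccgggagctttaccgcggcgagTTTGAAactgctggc
Cdc20, chr4:118437344-118437443, minus strand: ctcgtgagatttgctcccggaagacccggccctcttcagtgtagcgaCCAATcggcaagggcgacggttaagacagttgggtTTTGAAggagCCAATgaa
Ube2c, chr2:164769679-164769928, plus strand: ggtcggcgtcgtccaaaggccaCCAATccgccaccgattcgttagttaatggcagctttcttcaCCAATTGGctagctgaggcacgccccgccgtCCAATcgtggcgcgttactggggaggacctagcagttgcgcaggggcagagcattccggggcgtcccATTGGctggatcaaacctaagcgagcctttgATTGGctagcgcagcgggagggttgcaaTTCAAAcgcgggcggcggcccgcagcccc
Kif11, chr19:37376282-37376381, plus strand: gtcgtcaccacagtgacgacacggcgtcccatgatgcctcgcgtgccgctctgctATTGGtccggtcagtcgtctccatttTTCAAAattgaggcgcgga
Mki67, chr7:135716380-135716579, minus strand: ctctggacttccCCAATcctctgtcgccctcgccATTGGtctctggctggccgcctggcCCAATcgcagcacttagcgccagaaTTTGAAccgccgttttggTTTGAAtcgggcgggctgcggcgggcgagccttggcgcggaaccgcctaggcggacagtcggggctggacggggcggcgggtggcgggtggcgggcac
Top2a, chr11:99024190-99024439, minus strand: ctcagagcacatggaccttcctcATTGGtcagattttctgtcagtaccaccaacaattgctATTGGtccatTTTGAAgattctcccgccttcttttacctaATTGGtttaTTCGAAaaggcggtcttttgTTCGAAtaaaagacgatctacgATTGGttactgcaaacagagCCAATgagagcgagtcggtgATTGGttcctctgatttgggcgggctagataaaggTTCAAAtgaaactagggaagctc
Pttg1, chr11:43425982-43426081, minus strand: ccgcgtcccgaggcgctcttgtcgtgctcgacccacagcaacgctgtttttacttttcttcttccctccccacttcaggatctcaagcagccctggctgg

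A promoter window was in the RefSeq table for 36 of the 45 genes. A CHR match was found in 29 of them (80.6%), against 21.7% of the 27025 genes of the table and 16.1% of those measured above background on both arrays. CCAAT was also found in 29 (80.6%), against 41.1% of all genes of the table and 43% of the measured ones. Both elements were found in 26 (72.2%), against 8.61% and 6.41%. GCGGGAA, an E2F-like sequence searched on both strands, was present in only 1 of the 36, that of Ncapg (2.78%, against 5.29% of all genes and 10% of the measured ones). In a separate list of DNA replication and G1/S genes with a window, 17 of 38 held GCGGGAA (44.7%) and 8 held the CHR (21.1%). These are matches of letters and say nothing of which factors were bound.

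Within the mitotic promoters the elements were placed differently. Genes with several windows were counted here by the first. Of 63 CCAAT matches 61 began before the start, and the median position of all 63 was -68. Of 39 CHR matches 20 began before the start and 19 after it. The longest row was in Top2a, with 6 CCAAT and 4 CHR matches in the printed stretch. Ube2c, which also had 6 CCAAT matches, held a single CHR at position -29. Mad2l1, Birc5, Nuf2 and Pttg1 had neither element in this window.

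**Figure D1:**
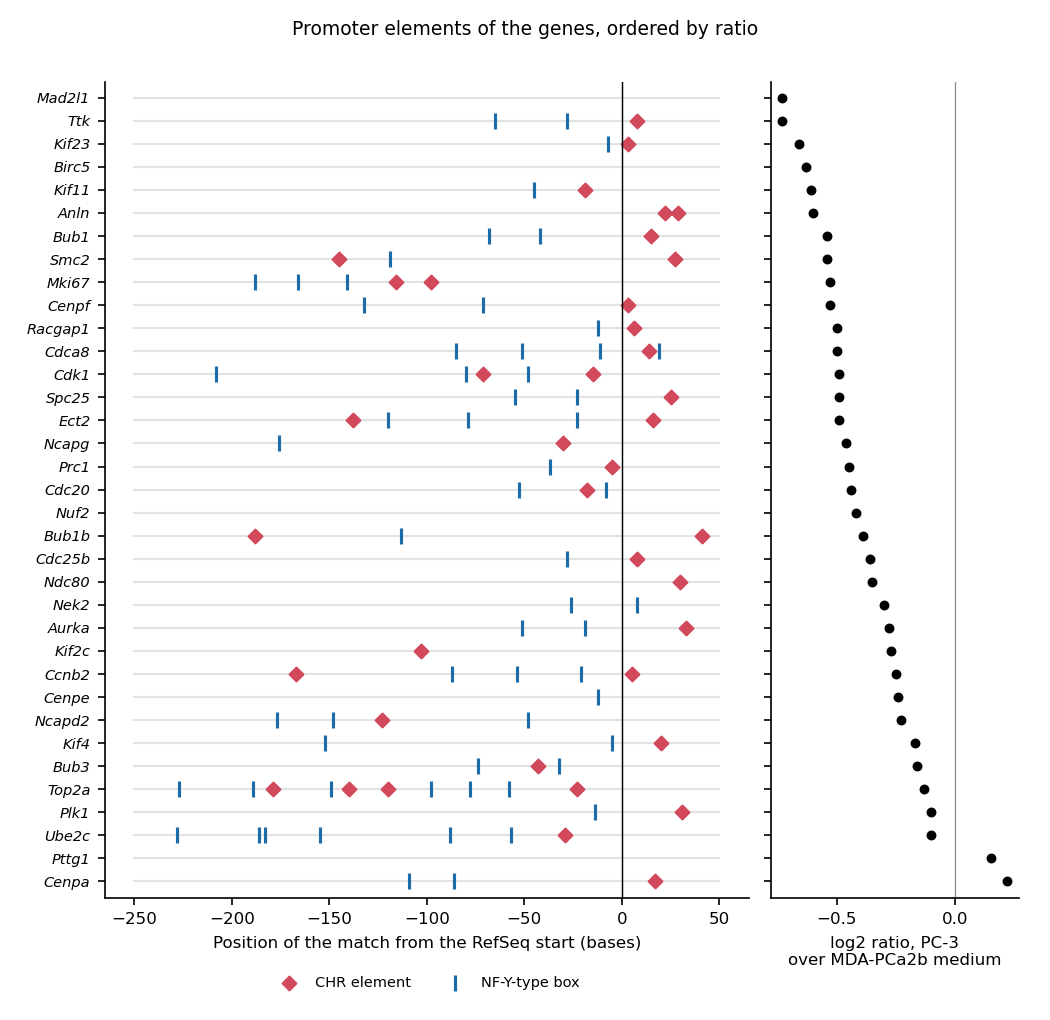
Left, positions of CHR (diamonds) and CCAAT (NF-Y-type, bars) matches in bases from the RefSeq start, for the 35 genes with both a promoter window and a ratio, ordered by ratio from the lowest at the top. Right, the log2 ratio of each gene's brightest probe set; genes with and without the elements lie along the whole order, from Mad2l1 at -0.73 (neither element) to Cenpa at 0.22 (both).

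The signals were on a linear scale. The median probe set of each array served as its floor (56.7 for MDA-PCa2b medium, 57.7 for PC-3 medium), lower values were raised to it, and the log2 ratio of a gene was taken from its probe set with the highest mean signal. All 44 genes were above the floor on both arrays by that probe set, so none entered through 1 medium alone. The only error measure was the scatter of log2 ratios between probe sets of the same gene, an SD of 0.24 over 4921 genes with several measured probe sets (1.18-fold), and 0.23 within the mitotic genes. It covers disagreement between probe sets read from the same RNA and arrays. It does not cover error that the probe sets of an array share, or the spread between cultures. Signals of different genes were not compared, since probe sets differ in efficiency, apart from sums over cell type markers, which bright probe sets dominate.

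Mitosis and spindle genes were lower with PC-3 medium almost throughout, by a modest amount. Of the 44 genes 42 had a ratio below 0 (95.5%), against 55.9% of 10649 genes with both signals above the floor. Their median log2 ratio was -0.44, against -0.04 over all genes, with quartiles of -0.53 and -0.25. The ratio was at least 1.5-fold lower for 7 genes (15.9%, background 6.23%) and at least 1.5-fold higher for none (background 5.18%). None was 2-fold lower, a size that 1.68% of all genes reached. The SD of the ratios was 0.22 within the group and 0.44 over all genes. In RNA of a whole culture, fewer dividing cells and less mitotic RNA per cell cannot be told apart.

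**Figure D2:**
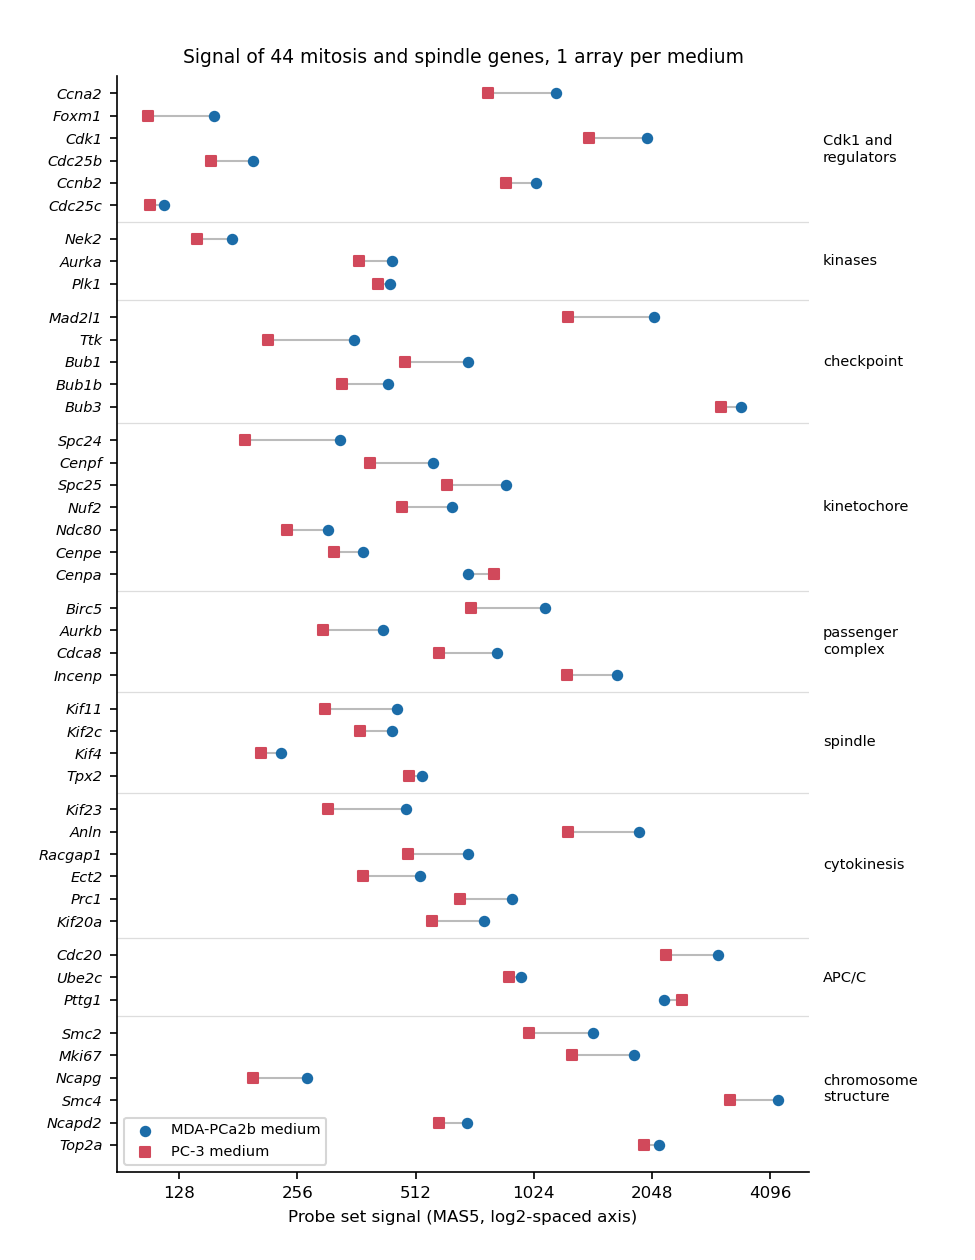
Signal of each gene's brightest probe set (MAS5 signal, log2-spaced axis) with MDA-PCa2b medium (circles) and PC-3 medium (squares), 1 array each, grouped by role. The square lies left of the circle for every gene except Cenpa (698 and 812) and Pttg1 (2199 and 2447).

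Of the 7 genes for cyclins, Cdk1 and its regulators, 6 had a ratio, all below 0, with a median of -0.43. Ccna2, the cyclin of S phase and G2, had a signal of 1166 with MDA-PCa2b medium, given first here and below, and of 782 in the cells given PC-3 medium, 1.49-fold lower, just short of the 1.5-fold mark. Its second probe set gave 913 and 600 (log2 ratio -0.61). Cdk1, the kinase that starts mitosis, was at 1985 and 1417 (log2 ratio -0.49). Its partner Ccnb2, a B-type cyclin, was at 1035 and 868, a log2 ratio of -0.25 that equals about 1 SD of the probe set scatter. Foxm1, a transcription factor that raises G2/M genes, was at 157 and 107 (log2 ratio -0.55), and its second probe set at 123 and 75.3 (-0.71). A further one was below the floor with PC-3 medium, which bounds its difference at 1.79-fold or more.

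The Cdc25 phosphatases, which remove inhibitory phosphates from Cdk1, were close to the floor. Cdc25b was at 198 and 154 (log2 ratio -0.36). Cdc25c gave unequal values: 117 and 108 by its brightest probe set (-0.11) but 144 and 65.3 by the other (-1.14), so only its sign was shared.

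The other mitotic kinases had a median of -0.28. Aurka, the centrosomal Aurora kinase, was at 445 and 367 (log2 ratio -0.28). Nek2, which separates centrosomes, was at 175 and 142 (-0.30, and -0.29 by a second probe set). Plk1, a kinase needed from mitotic entry to cytokinesis, was at 441 and 410. Its ratio of -0.10 lay within the probe set scatter.

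By brightest probe sets, spindle checkpoint genes had the lowest group median, -0.54, and all 5 were below 0. That median was the value of Bub1, which was -0.31 when averaged over its measured probe sets. Group medians of -0.50 for the chromosomal passenger complex and -0.49 for cytokinesis genes differed from it by less than the probe set scatter. Mad2l1, whose product binds Cdc20 to block the APC/C, was at 2072 and 1250, 1.66-fold lower. Ttk, the kinase that recruits checkpoint proteins to kinetochores, was at 357 and 216, 1.65-fold lower. A dimmer probe set of Ttk cleared the floor only on the MDA-PCa2b medium array (70.4, against 51.8). Bub1, another checkpoint kinase, was at 697 and 480 (log2 ratio -0.54), although its second probe set, much nearer the floor, gave 119 and 113 (-0.08). Bub1b, which encodes BubR1, was at 436 and 332 (-0.39, and -0.32 by its second probe set). Bub3, which carries Bub1 and BubR1 to kinetochores, was at 3445 and 3075. Its ratio of -0.16 was inside the scatter, as was the -0.09 of a second probe set.

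The kinetochore and centromere genes held both the lowest and the highest ratio of the group. The Ndc80 complex, the main microtubule anchor of the kinetochore, was lower in all 4 subunits. Spc24 led them with 328 and 188, 1.74-fold lower, followed by Spc25 at 868 and 617 (log2 ratio -0.49). Nuf2 was at 635 and 474 (-0.42), and Ndc80 itself at 307 and 241 (-0.35). These 4 proteins form a complex of fixed composition, and their ratios spanned less than 2 SD of the probe set scatter. Cenpf, a large kinetochore protein gene of G2 and mitosis, was at 567 and 392 (-0.53).

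Cenpa and Cenpe departed from this. Cenpa, the histone H3 variant that marks centromeres, was at 698 and 812, a log2 ratio of 0.22 that did not exceed the scatter. Its other probe sets were below the floor on both arrays. Cenpe, a kinetochore kinesin gene, was at 377 and 318 (-0.24) by its brightest probe set and at 94.7 and 152 (0.69) by the other. Averaged over both, its ratio turned to 0.22.

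The chromosomal passenger complex, which corrects faulty attachments and directs cytokinesis, was lower in all 4 subunits, with a median of -0.50 and a narrow range from -0.63 to -0.42. Birc5, which encodes survivin, was at 1092 and 707, 1.54-fold lower. Its kinase Aurkb was at 422 and 297 (log2 ratio -0.51, and -0.24 by a second probe set). Cdca8, which encodes borealin, was at 826 and 586 (-0.50), with -0.38 and -0.50 by its other probe sets. The scaffold gene Incenp was at 1663 and 1245 (-0.42), but its next probe set gave 398 and 368 (-0.11). With probe sets that can match several transcripts left out, that smaller value stood for Incenp.

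Spindle motor and assembly genes had a smaller median, -0.22. Kif11, the motor that pushes spindle poles apart, was at 460 and 302, 1.52-fold lower, and its other probe sets gave -0.46 and -0.48. The microtubule depolymeriser Kif2c was at 445 and 369 (log2 ratio -0.27), but its other measured probe sets gave -0.19 and -0.12, within the scatter. The chromosome-bound motor Kif4 was at 233 and 207 (-0.17). Tpx2, which activates Aurora A on the spindle, was at 532 and 494 (-0.11) by its brightest probe set and at 257 and 183 (-0.49) by the second, so the size of its difference was unsettled.

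Cytokinesis genes were as even as the passenger complex, with an SD of 0.09 in both. All 6 lay between -0.66 and -0.44, each beyond the probe set SD. Kif23, a motor of the central spindle, was at 485 and 306, 1.58-fold lower. Anln, the contractile ring protein anillin, was at 1898 and 1253, 1.51-fold lower. Racgap1, the partner of Kif23 in centralspindlin, was at 696 and 491 (-0.50), and a second probe set gave -0.51. Ect2, the exchange factor that activates RhoA at the cleavage plane, was at 527 and 376 (-0.49). The microtubule bundler Prc1 was at 903 and 663 (-0.45), and the motor Kif20a at 763 and 563 (-0.44).

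Genes that trigger anaphase split up. Cdc20, the APC/C activator, was at 3020 and 2225 (log2 ratio -0.44), and its other probe sets gave -0.39 and -0.47. Ube2c, the ubiquitin-conjugating enzyme of the APC/C, was at 949 and 886, with a ratio of -0.10 inside the scatter. Pttg1, which encodes securin, the inhibitor of separase, was at 2199 and 2447 (0.15), and its second probe set at 606 and 780 (0.36). It was the only gene of the group with several measured probe sets that were all above 0.

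All 6 chromosome structure genes were below 0, with a median of -0.43. Mki67, the Ki-67 proliferation marker that coats mitotic chromosomes, was at 1839 and 1278 (-0.53). The condensin genes Smc2 (1447 and 993, -0.54), Ncapg (271 and 198, -0.46) and Smc4 (4280 and 3237, -0.40) gave similar ratios by their brightest probe sets. Other measured probe sets gave -0.22 and -0.57 for Smc2, -0.40 for Ncapg, and -0.45 and -0.19 for Smc4. Ncapd2, a further condensin subunit gene, was at 692 and 589 (-0.23). Top2a, the topoisomerase that untangles sister DNA, was at 2134 and 1952 (-0.13) by its brightest probe set and at 225 and 160 (-0.49) by the second.

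For 23 of the 44 genes the ratio could be set beside that of a further measured probe set, while 21 had a single one. Of the 102 probe sets naming a gene of the group, 74 were above the floor on both arrays, and 70 of those had a ratio below 0. The other 7 above the floor on 1 array were all above it with MDA-PCa2b medium, and 21 were below it on both. Among all genes, by brightest probe set, 55.9% of those measured were below 0. With MDA-PCa2b medium alone 359 genes were above the floor, and with PC-3 medium alone 327. Over the 30 measured probe sets that were not the brightest, 28 were below 0, with a median of -0.39. Of the 23, 21 had every ratio below 0, Pttg1 every ratio above it, and Cenpe 1 on each side. The probe sets of Cenpe and Cdc25c were the only ones over 0.5 log2 units apart. Probe sets of a gene share the RNA and the array, so their accord does not stand for a second culture.

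**Figure D3:**
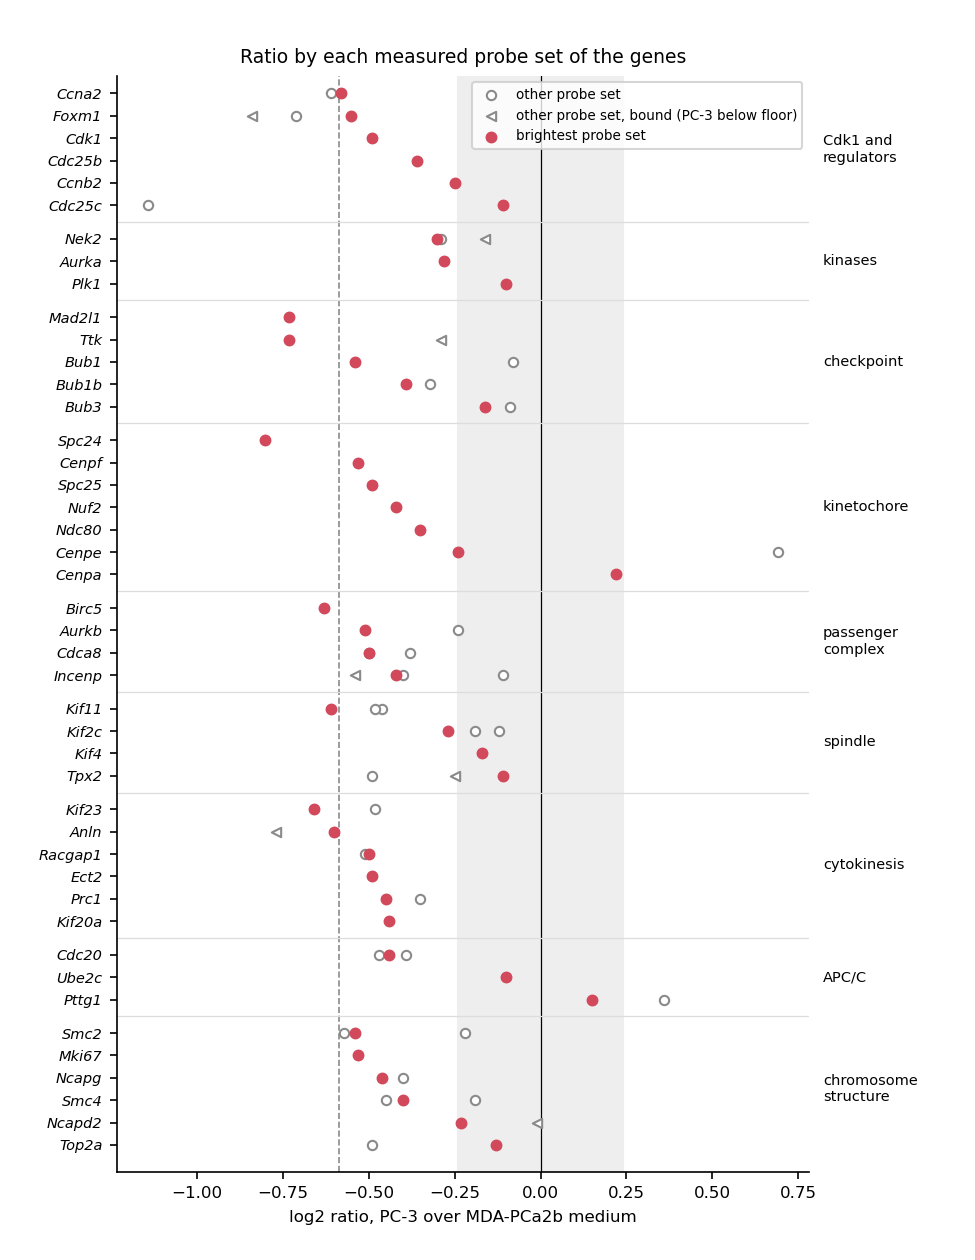
Log2 ratio of each probe set above the floor on at least 1 array, by gene and role; filled circles are the brightest probe sets, open circles the others, and triangles mark bounds where the PC-3 medium signal was below the floor. The grey band is ±0.24, 1 SD between probe sets of a gene, and the dashed line 1.5-fold lower. Left of the band lie 34 of the 44 filled circles, and 2423 of all 10649 measured genes had ratios that low.

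Lower ratios were found at every level of signal. In the lowest, middle and highest tertile of signal over all measured genes, 8, 21 and 15 mitotic genes had medians of -0.36, -0.45 and -0.44. All genes of the same tertiles had medians of -0.03, -0.04 and -0.04. The probe set SD was 0.29, 0.26 and 0.22. As a check of RNA quality, the log2 ratio of 3′ over 5′ control signals was 0.48 and 0.59 for beta-actin and -0.45 and -0.47 for Gapdh, MDA-PCa2b medium first.

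Mitotic genes outside the group gave a like picture on the same arrays, though their list was also chosen with earlier results known. From a further list of 78, 68 were above the floor on both arrays, and their median was -0.44 with 63 below 0 (92.6%, background 55.9%). At least 1.5-fold lower were 17 (25%, background 6.23%), and none was that much higher (background 5.18%). They were led by Ska1, a kinetochore coupler gene, at 221 and 109 (2.02-fold lower), and Ncaph2, a condensin II subunit gene, at 1624 and 844 (1.92-fold, with ratios up to -0.23 by its other probe sets). Cenpp, an inner kinetochore gene, and Kntc1, a checkpoint gene, both had ratios of -0.83, but another probe set of Cenpp gave 0.06. The 5 genes above 0 were Dsn1 (0.43), Kif22 (0.40), Cit (0.13), Psrc1 (0.13) and Cenpl (0.10), all named after their values were seen. Probe sets of Kif22 and Psrc1 also reached below 0 (-0.06 and -0.20), and another of Cit gave 1.58.

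Genes acting earlier in the cell cycle had a lower median. That of DNA replication and G1/S genes was -0.58, with all 42 measured genes below 0 (background 55.9%). At least 1.5-fold lower were 21 of them (50%, background 6.23%). The largest were Cdc6, which loads the replicative helicase (286 and 84.0, 3.41-fold lower), Ccne2, a cyclin of S phase entry (2.53-fold), Chaf1b, a chromatin assembly gene (2.39-fold), and Uhrf1, which maintains DNA methylation (2.27-fold). No mitotic gene of the group reached their size: the lowest, Spc24, was at -0.80. Whether the replication and mitosis lists differ could not be tested with 1 array per medium.

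Genes that serve mitosis but are expressed outside it were near 0 by their brightest probe sets. The 13 core subunits and activators of the APC/C had a median of -0.03, with 8 below 0 (61.5%, background 55.9%) and none 1.5-fold different. The largest were Cdc23 (-0.28) and Anapc13 (-0.27). Other probe sets reached -0.49 for Cdc26, -0.45 for Anapc11, -0.40 for Anapc1 and 0.48 for Cdc27. The 9 cohesin genes, whose ring holds sister chromatids together, had a median of 0.02 with 4 below 0 (44.4%, background 55.9%). Their largest ratios were -0.29 for Pds5a (0.03 by its other probe set) and -0.22 for Smc3. Dimmer probe sets reached -0.55 for Pds5b and 0.36 for Nipbl.

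**Figure D4:**
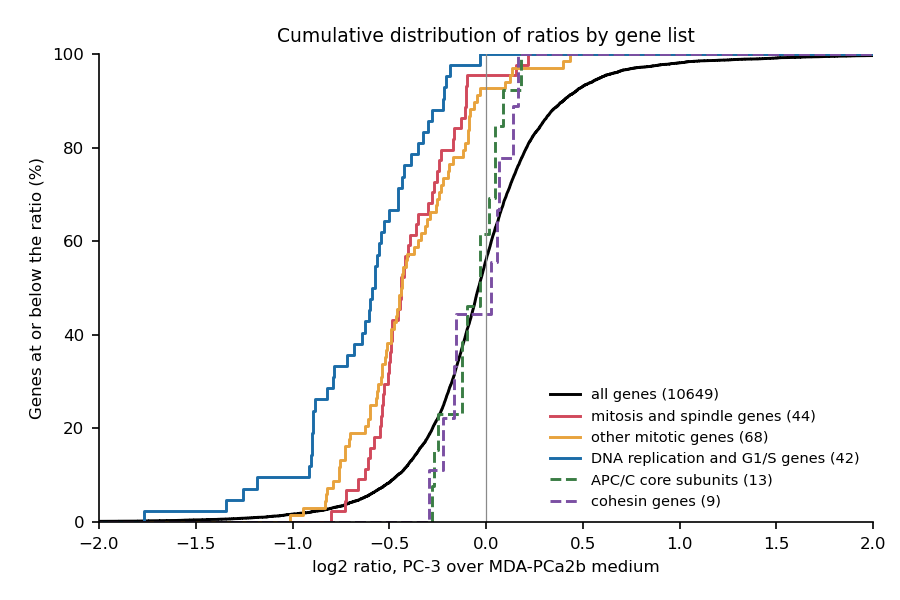
Cumulative share of genes (%) at or below each log2 ratio, for all 10649 genes with both signals above the floor and for 5 lists, with the number of measured genes in brackets. Around its median (-0.44) the curve of mitosis and spindle genes runs beside that of the other mitotic genes (-0.44), right of DNA replication and G1/S genes (-0.58) and left of all genes (-0.04), APC/C core subunits (-0.03) and cohesin genes (0.02).

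Regulators of the cycle were measured beside their targets. Of 17 measured genes for E2F factors, B-Myb, MuvB subunits, pocket proteins and NF-Y, 14 were below 0 (82.4%, background 55.9%). The median of the 17 was -0.28, and 2 were at least 1.5-fold lower (11.8%, background 6.23%). E2f7, a repressor of the E2F family, was at 243 and 140 (1.74-fold lower), and E2f6, another repressor, at 713 and 448 (1.59-fold lower). Mybl2, which encodes B-Myb, was at 68.2 with MDA-PCa2b medium and below the floor with PC-3 medium, and was named after its values were seen. Of the D-type cyclins and G1 kinases, only Ccnd1, the cyclin D1 gene, was 1.5-fold different by its brightest probe set, at 6046 and 3746 (1.61-fold lower). Ccnd2, a further D-type cyclin gene, had a log2 ratio of -0.47 by its brightest probe set. Its 7 measured probe sets ranged from -0.82 to -0.37. For 16 cell cycle inhibitors and p53 arrest genes the median was 0.07. At least 1.5-fold higher were 3 (background 5.18%), and none was that much lower (background 6.23%). Gadd45a, a growth arrest gene, was at 1157 and 3230 (2.79-fold higher), Ccng2, a cyclin linked to quiescence, at 1635 and 2974 (1.82-fold), and Gas1, a growth arrest membrane protein gene, at 4638 and 7185 (1.55-fold).

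Outside the gene lists, ratios were alike with and without the promoter elements. Of 494 measured genes in none of the lists whose windows held both the CHR and CCAAT, the median was -0.03 and 54.7% were below 0. For the 4160 such genes with neither, the median was also -0.03, with 54.6% below 0. Among the mitotic genes the median was -0.45 for the 26 with both elements and -0.52 for the 4 with neither, which ranged from -0.73 to 0.15. It was -0.35 for the 3 with the CHR alone and -0.27 for the 2 with CCAAT alone.

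The cultures carried the markers of their label, and some of other cells. Of 13 osteoblast markers 10 had a probe set, all of them above the floor and with a ratio below 0 (100%, against 55.9% of all measured genes). Of these ratios 5 were within the probe set scatter, and the summed signals were 101099 and 91614. The sums were mostly collagen, Sparc and Ibsp signal, with ratios no lower than -0.12 by their brightest probe sets. Other probe sets reached -0.59 for Col1a2, -0.36 for Ibsp and 0.33 for Sparc. At least 1.5-fold lower were 3 markers (30%, background 6.23%). Ifitm5, a gene of mineralizing osteoblasts, was at 4442 and 741 (6.00-fold lower), and Dmp1, a matrix protein gene of osteocytes, at 1765 and 426 (4.14-fold lower). Sp7, which encodes the osteoblast transcription factor osterix, was at 1469 and 919 (1.60-fold lower). Both Ifitm5 and Dmp1 differed by more than any mitotic gene of the group. All 11 macrophage and osteoclast markers were also above it, Ptprc and Csf1r included, with sums of 23623 and 24093 and ratios above 0 for 8. They were led by the Fc receptor gene Fcgr1 (86.7 and 153, log2 ratio 0.82) and by Cd68 (566 and 851, 0.59). The 5 chondrocyte markers had sums of 9641 and 8616 and ratios below 0 for 4. The 3 adipocyte markers with a probe set had sums of 426 and 699. Pparg was at 60.7 with MDA-PCa2b medium and below the floor with PC-3 medium, and the other 2 were above it on both arrays. These were Fabp4, a fatty acid carrier gene (265 and 522, 1.97-fold higher, and 0.78 by its other probe set), and Adipoq (101 and 139, log2 ratio 0.47). All 5 endothelial and all 5 measurable blood cell markers were below the floor on both. Which of these cells carried the mitotic transcripts, and their part in the ratios, was not tested.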

How the data were processed

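Total RNA of 2 osteoblast cultures was measured on 1 array each. The deposited values are probe set signals, an intensity on a linear scale. The submitters' processing notes name GCOS 1.4 and MAS5 as the authors' software. The trimmed mean signal (2% off each end) was 300.0 on both arrays, so they had been scaled globally; target, background settings and detection calls are not given in the sources used here. Groups follow the source field of each sample, although the PC-3 sample's title also holds "MDA".

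Of 45101 probe sets, 64 controls were left out. The platform annotation gave 1 gene to 34958 and several to 932, which were not named; 9211 were not listed. Symbols were matched by Entrez identifier to RefSeq (34754 matched, 0 updated). The floor, the brightest probe set, the 1.5-fold mark and the gene lists were used as the text describes them. Every gene of the group is named, with both signals, every probe set for genes whose probe sets differ in sign or by over 0.5, and up to 4 of the largest in each further list. The members and lists were chosen with earlier results of these data known. Alternatives were other floors, log2(signal + 16), quantile normalization, centring, averaged probe sets, fewer probe sets and brighter genes. Scripts (Python 3.11.15, pandas 2.3.3) were tested on simulated data. The number of arrays limits the precision.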

Additional observations from a re-analysis of the deposited data

How the results depend on the processing

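No paired analysis was possible because each medium had 1 array. Under all 8 alternatives the median log2 ratio of the mitosis and spindle genes stayed between -0.44 and -0.40, and that of all genes between -0.04 and 0.00. The count at least 1.5-fold lower ranged from 5 to 8, with a background of 3.44% to 9.01%, and that at least 2-fold lower was 0 throughout. All but 2 or 3 measured genes were below 0, and 31 of 31 were where probe sets that can match several transcripts were left out. Of 327 values of single genes under an alternative, 320 were within 1 probe set SD (0.24) of the reported one and none of the genes at least 1.5-fold lower changed sign. The 7 that moved further were Cdc25c (-0.62) and Cenpe (0.22) with probe sets averaged, Incenp (-0.11) and Top2a (-0.49) without multi-transcript probe sets, and Ndc80 (-0.03), Spc24 (-0.13) and Ttk (-0.25) with the floor at the 75th percentile, where these 3 are bounds. With that floor 34 of 44 genes were above it on both arrays and 6 on neither. Differences near the probe set SD cannot be resolved with these arrays.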
